A study of Mus musculus with 15 samples.

Results

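The nuclear-encoded genes of the respiratory chain and ATP synthase were followed in the stem cells (satellite cells) of mouse skeletal muscle while muscle was taken apart by enzymes. Members were the table rows whose gene name begins with Nduf, Cox4 to Cox8, Uqcr or Atp5, or is Sdha, Sdhb, Sdhc, Sdhd, Cycs or Cyc1, without pseudogene names. The rule uses names alone and no measured value, and it found 68 of the 8059 genes in the table. Of these, 29 encode subunits of complex I, 2 assembly factors of complex I, 4 subunits of complex II, 9 of complex III, 11 of complex IV and 13 of complex V. A further 28 annotated mouse genes that match the rule, among them Cycs and Cox7c, were not analysed here. All 68 are annotated as protein coding, and 0 mitochondrially encoded genes were in the table, so the chain's subunits made inside mitochondria were not measured here.

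Bulk RNA-seq compared stem cells of intact muscle (T0) with stem cells of muscle dissociated for T15, T30, T60, T90 and T120, and the numbers, for which the labels give no unit, were taken as minutes. All groups, T0 included, were labelled as fixed; the protocols name PFA for fixation and a collagenase and dispase mixture for dissociation. T30 and T90 had 3 libraries and each other group had 4, named here by their letters A to D. Strain, sex and age, any transgene, how the bulk cells were sorted and whether the libraries of a time point came from separate animals the sources used here do not say, so p-values measure only the spread between these libraries.

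Mitochondrial respiration passes electrons from NADH through complex I, or from succinate through complex II, by way of coenzyme Q to complex III, then by cytochrome c to complex IV, which reduces oxygen. Complexes I, III and IV pump protons across the inner membrane, and complex V, the ATP synthase, uses their return to make ATP. Resting satellite cells are known for few mitochondria and low respiration, and respiration is known to increase when they activate.

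The libraries held 2974294 to 10482407 counts over the listed genes at T0, T15 and T30 and 8647622 to 27826437 at T60, T90 and T120. All 12 satellite cell markers sought were in the table, Pax7 and Myod1 among them, with summed levels of 5988 to 9218 CPM (read counts relative to library size after TMM scaling) over the 22 libraries; of 4 glial, 3 erythroid and 3 tenocyte markers 0 were listed. Of the satellite cell markers 4 rose and 6 fell at T120 against T0, Myod1 by 3.52 ± 0.21 and Pax7 by -1.83 ± 0.16 on the log2 scale. Reads spread over long genes of other tissues, a measure of background, had means of 3.08 CPM per kb of exon in T0, 1.83 in T15, 5.58 in T30, 0.123 in T60, 0.152 in T90 and 0.409 in T120. Of 9 listed myofibre markers of 18 2 rose and 6 fell at T120, with summed levels of 386 to 648 CPM at T120 and 786 to 985 CPM at T0, and of 6 listed smooth muscle and pericyte markers of 8 2 rose, with 486 to 690 CPM at T120 and 240 to 343 CPM at T0. The 4 listed endothelial markers of 8 all rose at T120, with summed levels of 156 to 418 CPM at T120 and 37.9 to 99.4 CPM at T0. Of 3 listed fibro-adipogenic markers of 6, Col1a1 (0.92 ± 0.27) and Dcn (1.63 ± 0.51) rose at T120 and Col3a1 (-0.26 ± 0.19) was not called. Their summed levels were 929 to 1217 CPM at T120 and 817 to 1549 CPM at T0. The 1 listed immune marker of 7, Cd68, rose by 1.72 ± 0.34 at T30 and by 0.72 ± 0.32 at T120. Beside the results stand values without libraries of high background or high endothelial markers and after subtraction of background. The part of the other markers was not tested. The share of all listed counts that fell on the 68 members was 0.298% to 0.355% at T120 and 0.429% to 0.491% at T0, without overlap. After TMM scaling their summed level was 3537 to 4055 CPM at T120 and 3708 to 4298 CPM at T0, with overlap. The TMM factors were 0.844 to 0.944 at T120 and 1.06 to 1.20 at T0, so how far the members' total changed depends on the scaling.

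Of 29 genes for complex I subunits 12 fell at T60 and 27 at T120, where 28.3% and 39.5% of all 8059 listed genes fell. Of 11 genes for complex IV 1 was called at T120, beside 76.8% of all genes. Complex V had 5 of 13 genes up, a share close to the 37.3% of all genes, and 3 down. Changes were called with edgeR's quasi-likelihood test at an adjusted p under 0.05 over all 8059 genes. At T15 0 of 68 members were called, beside 0.67% of all genes, and 0 had an unadjusted p under 0.05; DESeq2 and limma-voom also called 0. At T30 2 members were down and 0 up, beside 5% of all genes called (3.66% up and 1.34% down). Estimates were negative for 66 of 68 members, and 17 members had an unadjusted p under 0.05. The shares of all genes for these counts were not computed, and background was highest at T30. At T60 2 members were up and 17 down, which is 27.9% of the members beside 56.2% of all genes (27.9% up and 28.3% down). At T90 4 were up and 31 down (51.5% of the members, 68.8% of all genes, 33.8% up and 35% down), and at T120 9 were up and 37 down (67.6% of the members, 76.8% of all genes). In bulk RNA such a difference cannot tell fewer cells of a type from less RNA per cell.

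The members' calls leaned downward. At T120 37 of 68 members were down where 39.5% of all genes were, and 9 were up where 37.3% of all genes were. The median log2 fold change of the 68 members was -0.17 at T60, -0.34 at T90 and -0.48 at T120, beside -0.03, -0.05 and -0.08 for all listed genes. T30 already had a member median of -0.28, beside -0.01 for all genes, which is lower than that of T60. In the step from T30 to T60 the member median was 0.18, beside 0.01 for all genes. Background was highest in T30. After its subtraction the members had -0.12 for T30 and -0.30 for that step, beside -0.15 and 0.30 for all genes. The libraries of T120 lay wholly below those of T0 for 36 members and wholly above them for 6, beside 36.5% and 34.9% of all genes; for T90 this held for 29 and 7 members (33.8% and 33.3% of all genes) and for T60 for 20 and 3 (27.7% and 27.1%). Over the 5 comparisons with T0, which share the T0 libraries, 15 members were down at T60, T90 and T120 alike, and 2, Atp5b and Atp5d, were up at all 3. The shares of all genes called alike at these times were not computed. A joint test over all time points called 44 members (64.7%), beside 85.7% of all genes. The other scaling that moved values most, upper-quartile factors, puts the median of all genes at T120 at -0.43 and that of the members at -0.84, with 2 members up and 48 down.

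**Figure D1:**
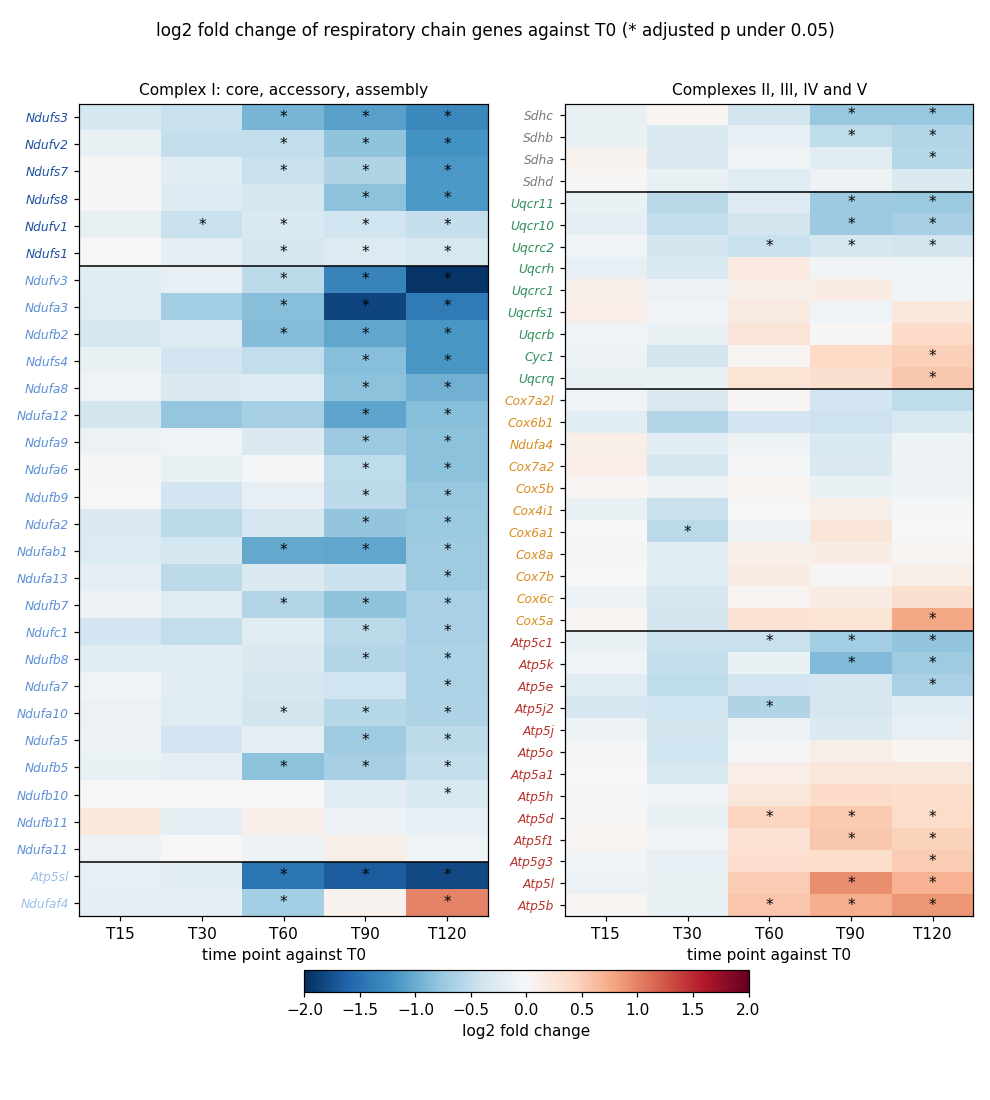
Log2 fold change of the members (rows, grouped by complex and sorted by the T120 value; 1 of the 68 is not drawn) at T15, T30, T60, T90 and T120 against T0 (columns), with a star where the adjusted p is under 0.05. Complex I is mostly blue at T90 and T120 (23 and 27 of 29 subunits down), complex IV has 1 star at T120, and complex V holds both red and blue rows; with upper-quartile factors the 5 rises of complex V at T120 shrink to 1.

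The genes with the largest called changes at T120 in their group of the chain include Ndufv3 and Ndufs3, which fell, and Ndufaf4, Atp5b and Cox5a, which rose. Their promoters are shown so that members with opposite changes can be set side by side; each is the RefSeq sequence (GRCm38.p6) of the 150 bases before the RefSeq start site, 5′ to 3′ on the gene's strand, with matches to the motifs named next in capitals. The gene positions given later are GENCODE's, whose starts can differ: 106 bases of the Ndufs3 stretch, its ETS letters included, and 34 bases of the Atp5b stretch lie inside the GENCODE gene.
Ndufv3 (chr17:31519965-31520114, plus strand): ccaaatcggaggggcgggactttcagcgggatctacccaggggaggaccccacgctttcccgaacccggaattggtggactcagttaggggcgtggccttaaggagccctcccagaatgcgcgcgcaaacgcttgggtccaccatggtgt
Ndufs3 (chr2:90904722-90904871, minus strand): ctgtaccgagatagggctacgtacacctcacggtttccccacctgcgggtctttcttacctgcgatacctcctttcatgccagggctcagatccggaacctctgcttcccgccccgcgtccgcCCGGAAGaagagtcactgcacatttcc
Ndufaf4 (chr4:24897933-24898082, plus strand): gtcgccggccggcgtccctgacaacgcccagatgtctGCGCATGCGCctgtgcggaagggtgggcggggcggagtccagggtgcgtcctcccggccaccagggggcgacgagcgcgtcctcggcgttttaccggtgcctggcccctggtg
Atp5b (chr10:128083157-128083306, plus strand): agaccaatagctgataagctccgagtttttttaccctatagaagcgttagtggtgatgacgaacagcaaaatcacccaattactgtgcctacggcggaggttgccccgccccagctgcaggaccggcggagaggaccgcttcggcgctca
Cox5a (chr9:57521082-57521231, plus strand): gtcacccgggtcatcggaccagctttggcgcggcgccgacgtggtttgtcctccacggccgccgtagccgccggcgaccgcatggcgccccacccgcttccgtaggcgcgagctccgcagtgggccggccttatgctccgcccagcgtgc
Of the 68 members 54 had a promoter in the RefSeq table, given as 250 bases before to 50 after the start. The motifs of 3 factors known from genes of the chain were searched on both strands of these 300 bases. The NRF1 motif (GCGCA, any base, then GCGC) was present for 14 of the 54 members (25.9%), against 13.1% of the listed genes with a promoter and 5.2% of all genes in the table of promoters. The ETS core CCGGAAG, which GABP binds, was present for 15 members (27.8%), against 21.8% of listed genes and 9.9% of all. The YY1 motif AAGATGGC, which can share its AAG with the ETS core, was present for 8 members (14.8%), against 6.3% of listed genes and 3.2% of all. Among the stretches printed above, Ndufaf4 has the NRF1 letters at -113 and Ndufs3 the ETS letters at -27, while those of Ndufv3, Atp5b and Cox5a hold none of the 3 motifs. A match or its absence describes these letters only.

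At T0 the members differed widely in level per kb of exon. Exon length joins all annotated exons of a gene, so the order per kb can differ from the order in CPM. The highest were the ATP synthase alpha subunit gene Atp5a1 at 121 ± 12.1 CPM per kb, Uqcrh of complex III at 108 ± 18.3 and the catalytic beta subunit gene Atp5b at 105 ± 19.2 (mean ± SD, n = 4), 3 levels that differ by less than the largest of these SDs. Cox8a with 86.1 ± 9.03 and Cox4i1 with 83.1 ± 1.501 CPM per kb of complex IV came next. The lowest per kb were Cox5a with 6.19 ± 1.51, Ndufb2 with 5.51 ± 0.470 and Atp5l with 2.43 ± 0.730 CPM per kb. In CPM they had 13.0, 31.0 and 15.6. For these low and long members background matters most: in the median library of T0, T15 and T30 it would amount to 62.6% of the count of Atp5l, 46% of Ndufb2, 33.2% of Ndufab1, 29.8% of Cox5a and 28.6% of Ndufaf4, against at most 5.86% of any of these 5 in the median library of T60, T90 and T120. In single early libraries it reached 621% of the count of Atp5l, 215% of Cox5a, 151% of Ndufab1, 145% of Ndufb2 and 119% of Ndufaf4. It also exceeded single counts of Ndufb8 (113%), Cyc1 and Ndufs1 (101% each). Counts that fell below 0 on subtraction were set to 0. The part of such excess subtraction in the calls lost after it was not tested.

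The core subunits of complex I, which carry its electron path and are conserved from bacteria, were all lower at T120. Of 7 measured core subunits 5 were down at T60 (28.3% of all genes), 6 at T90 (35%) and 7 at T120 (39.5%), with 0 up. Their median log2 fold change at T120 was -1.14. Ndufs3 (chr2:90894634-90904827, minus strand), a hydrophilic subunit beside the quinone site, had 26.5, 24.3, 21.8 and 27.9 CPM in T0, 14.6, 18.7, 22.3 and 23.4 in T15 and 19.9, 17.4 and 18.3 in T30. Ndufs3 then had 10.8, 15.9, 14.9 and 11.3 in T60, 10.6, 13.3 and 11.6 in T90 and 8.33, 8.70, 9.11 and 14.7 in T120. Every library from T60 on lay below every T0 library. Ndufs3 averaged 10.2 ± 3.03 CPM at T120 and 25.1 ± 2.66 CPM at T0 (SD, n = 4 each), with a log2 fold change of -1.29 ± 0.19 (SE; adjusted p = 4.04e-06).

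Ndufv1, which binds NADH and its flavin, was the core subunit called already at T30. It (chr19:4007384-4012806, minus strand) had 62.9, 63.3, 57.8 and 61.2 CPM in T0, 45.8, 63.1, 58.7 and 52.5 in T15 and 44.1, 42.02 and 48.6 in T30. Ndufv1 then had 46.9, 45.5, 51.99 and 54.95 in T60, 44.1, 51.8 and 44.2 in T90 and 35.99, 43.5, 47.6 and 48.4 in T120. The T30, T60, T90 and T120 libraries all lay below the T0 libraries. Ndufv1 fell by 0.45 on the log2 scale at T30 (SE 0.12; adjusted p = 0.0384) and stood at -0.48 ± 0.11 at T120 (adjusted p = 0.000624). With single libraries left out 0 to 6 members were called down at T30, 0 of them without 30A or 30B and 6 without 30C. Ndufs7 (-1.15 ± 0.18) and Ndufs8 (-1.14 ± 0.17), which hold iron-sulphur clusters next to the quinone site, and Ndufv2 (-1.20 ± 0.21), a cluster protein beside the flavin, fell more than 2-fold at T120. Ndufs1 (-0.32 ± 0.10), the large cluster-bearing subunit, fell less. After background subtraction 6 of the 7 were still down; Ndufs1, whose exons span 8086 bases, had -0.28 (adjusted p = 0.673).

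Accessory subunits of complex I, which surround the core and help it assemble, fell as well. Of 22 measured, 7 were down at T60, near the 28.3% of all genes, 17 at T90 (35% of all genes) and 20 at T120 (39.5%), with 0 up at any time. Their median at T120 was -0.71, beside -1.14 for the core subunits, a difference that was not tested. Ndufv3 (chr17:31520115-31531331, plus strand), a subunit of the NADH-oxidizing arm, had the largest fall of all 68 members. It had 96.7, 85.5, 95.5 and 102 CPM in T0, 68.2, 95.97, 80.8 and 82.5 in T15 and 69.96, 99.7 and 85.4 in T30. Ndufv3 then had 56.2, 71.3, 80.3 and 55.6 in T60, 33.8, 51.2 and 28.3 in T90 and 21.6, 22.8, 29.2 and 23.2 in T120. The T60, T90 and T120 libraries lay below all T0 libraries. Those of T90 and T120 lay below every library up to T60 and overlapped with each other. Ndufv3 averaged 24.2 ± 3.40 CPM at T120 and 94.8 ± 6.71 CPM at T0 (SD, n = 4 each), with log2 fold changes of -0.53 ± 0.17 at T60, -1.33 ± 0.19 at T90 and -1.97 ± 0.17 at T120 (adjusted p = 2.19e-09). It also fell in each later step, by 0.80 from T60 to T90 (adjusted p = 0.00281) and by 0.64 from T90 to T120 (adjusted p = 0.016; -0.62 and adjusted p = 0.14 after background subtraction).

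Other accessory subunits that fell at T120 by at least 2-fold were Ndufa3 (-1.41 ± 0.26), Ndufb2 (-1.16 ± 0.17) and Ndufs4 (-1.16 ± 0.22), of which Ndufs4 is known from Leigh syndrome. In all, 8 of the 29 core and accessory subunits were called and at least 2-fold lower, a share that was not computed for all genes. Ndufa8 (-0.97 ± 0.24), Ndufa12 (-0.85 ± 0.29), Ndufa9 (-0.82 ± 0.17) and Ndufa6 (-0.82 ± 0.20) came next, and the called falls ended with Ndufb10 (-0.30 ± 0.13; adjusted p = 0.043). Ndufab1, the mitochondrial acyl carrier protein, had its lowest estimates at T60 (-1.03 ± 0.17) and T90 (-1.04 ± 0.19) and stood at -0.71 ± 0.17 at T120. Ndufb5, a membrane-arm subunit, was lowest at T60 (-0.82 ± 0.12) and rose again by 0.34 from T60 to T120 (adjusted p = 0.0189). The 2 not called at T120 were Ndufa11 (-0.09 ± 0.18; adjusted p = 0.654) and Ndufb11 (-0.17 ± 0.13; adjusted p = 0.241).

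Core and accessory subunits together had 12 of 29 down at T60, 23 at T90 and 27 at T120 (28.3%, 35% and 39.5% of all genes). The same 12 were down at all 3 times, a share that was not computed for all genes. The libraries of T120 lay wholly below those of T0 for 26 of the 29, beside 36.5% of all genes. With upper-quartile factors 29 of 29 were down at T120. After background subtraction 22 were down, with a median of -0.87 in place of -0.71. The lost calls were those of Ndufs1, Ndufab1, Ndufb2, Ndufb5, Ndufb8 and Ndufc1, whose exon lengths run from 1495 to 8086 bases and whose estimates remained between -0.87 and -0.28, and Ndufb11 gained one (-0.46; adjusted p = 0.00631). Without the T120 libraries A and C, which had the highest endothelial marker levels, 21 were down, beside 2928 of all genes.

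**Figure D2:**
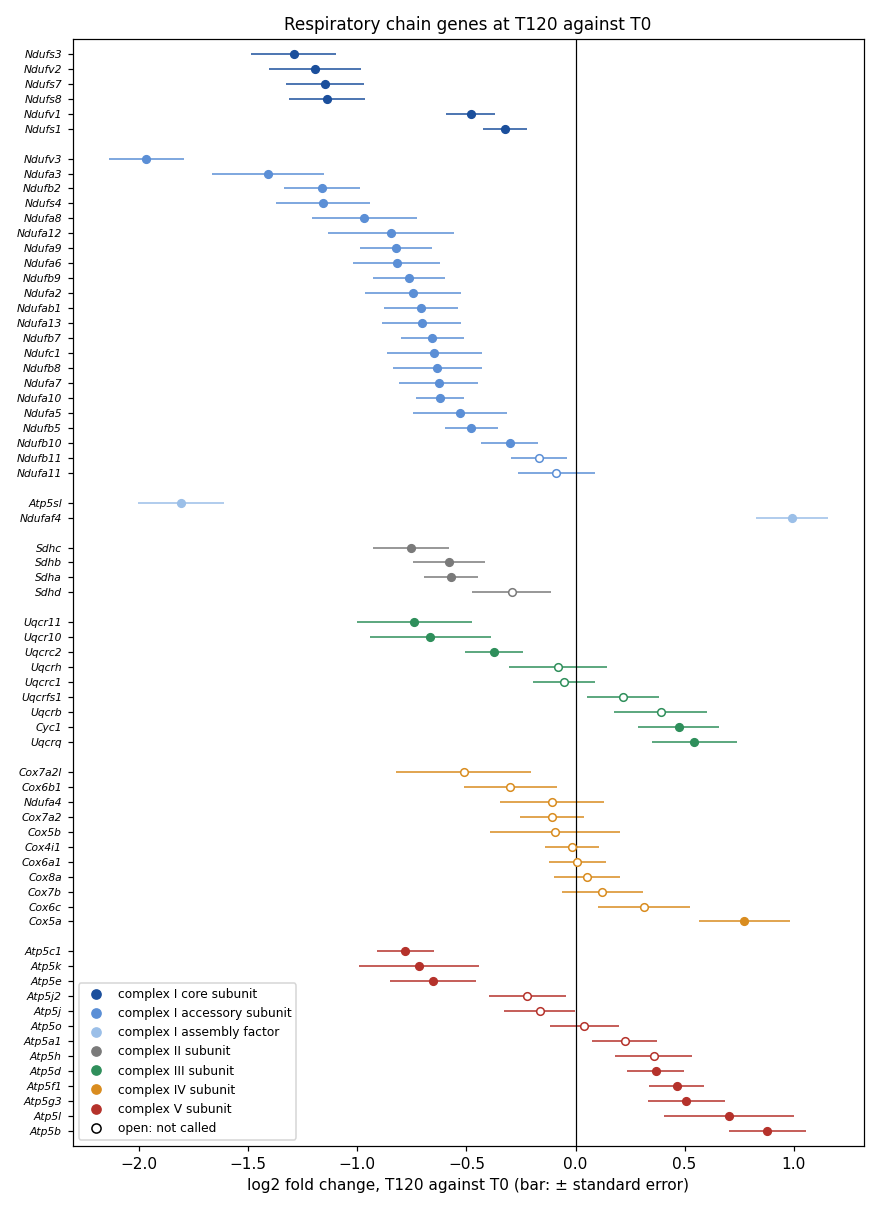
Log2 fold change at T120 against T0 for the members, grouped by complex (points; 1 of the 68 is not drawn; bars are ± 1 SE from the edgeR fit; filled where the adjusted p is under 0.05). All complex I subunits drawn lie left of 0, complex IV lies around 0, and complex V runs from -0.78 (Atp5c1) to 0.88 (Atp5b); with upper-quartile factors all points move left and the rises kept are those of Atp5b and Ndufaf4.

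The 2 measured assembly factors of complex I, proteins that build the complex and are not part of it, moved apart. Ndufaf4 (chr4:24898083-24905001, plus strand), which is needed to assemble complex I, had 32.7, 22.1, 31.01 and 28.1 CPM in T0, 24.5, 26.3, 24.3 and 23.6 in T15 and 23.7, 30.8 and 21.2 in T30. Ndufaf4 then had 15.1, 21.3, 18.8 and 15.9 in T60, 33.03, 25.6 and 31.5 in T90 and 49.1, 64.3, 44.3 and 68.4 in T120. Its T60 libraries lay below all T0 libraries and its T120 libraries above every library of the other times. Ndufaf4 fell at T60 (-0.68 ± 0.17; adjusted p = 0.00158), had 0.08 ± 0.18 at T90 (adjusted p = 0.707) and rose at T120 (0.99 ± 0.16; adjusted p = 1.36e-05), the largest rise of a member. It rose in both later steps as well, by 0.76 ± 0.17 at T90 against T60 and 0.91 ± 0.18 at T120 against T90, and the second hour as a whole gave 1.67 ± 0.16 (adjusted p = 7.64e-08). After background subtraction the T120 value was 1.21 with an adjusted p of 0.0562 and the T60 value -0.56 with an adjusted p of 0.47, while T120 against T60 kept its call (1.77; adjusted p = 0.0135) and the single steps lost theirs (0.77 and 1.00; adjusted p = 0.539 and 0.386).

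Atp5sl (chr7:25619414-25625551, plus strand), named for its likeness to an ATP synthase factor but known under its newer name Dmac2 as an assembly factor of the distal membrane arm of complex I, went the other way. It had 26.9, 23.1, 31.6 and 30.03 CPM in T0, 23.4, 26.5, 25.1 and 24.9 in T15 and 25.2, 27.8 and 18.9 in T30. Atp5sl then had 9.86, 8.50, 13.6 and 9.01 in T60, 8.94, 9.58 and 7.89 in T90 and 9.72, 8.09, 9.11 and 5.03 in T120. All libraries of T60, T90 and T120 lay below all libraries of the earlier times. The log2 fold change was -1.45 ± 0.19 at T60, -1.66 ± 0.21 at T90 and -1.81 ± 0.20 at T120 (adjusted p = 4.37e-08), and -1.99 at T120 after background subtraction (adjusted p = 3.36e-05). In the step from T30 to T60, which shares no library with T0, it fell by 1.22 on the log2 scale (adjusted p = 6.45e-05; -0.79 and adjusted p = 0.0888 after background subtraction).

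Complex II, the succinate dehydrogenase that belongs to the citrate cycle as well, had 0 of 4 subunits called at T60, 2 down at T90 and 3 down at T120. Of all genes 56.2% were called at T60, 35% were down at T90 and 39.5% were down at T120. Sdhc (chr1:171127165-171150603, minus strand), a membrane anchor, had 33.1, 28.5, 36.03 and 31.7 CPM in T0, 20.3, 31.2, 25.6 and 39.8 in T15 and 34.8, 35.2 and 29.6 in T30. Sdhc then had 22.1, 23.3, 25.6 and 28.9 in T60, 14.9, 21.2 and 21.3 in T90 and 16.2, 20.2, 21.6 and 18.5 in T120. All T120 libraries lay below all T0 libraries, while those of T30 and T60 overlapped with T0. Sdhc averaged 19.1 ± 2.32 CPM at T120 and 32.4 ± 3.12 CPM at T0 (SD, n = 4 each; log2 fold change -0.75 ± 0.17; adjusted p = 0.000542). The iron-sulphur subunit Sdhb (-0.58 ± 0.16; adjusted p = 0.00307) and the flavoprotein Sdha (-0.57 ± 0.12; adjusted p = 0.000279) fell as well, and the other anchor, Sdhd, had -0.29 ± 0.18 (adjusted p = 0.143). All 3 calls at T120 were kept after background subtraction.

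Complex III, which hands electrons from coenzyme Q to cytochrome c, had 2 of 9 members up and 3 down at T120, neither above the share of all genes (37.3% up and 39.5% down). The small subunit gene Uqcrq (chr11:53427922-53430831, minus strand) had 31.1, 25.2, 28.2 and 29.2 CPM in T0, 16.97, 32.7, 26.4 and 26.3 in T15 and 19.04, 22.01 and 35.9 in T30. Uqcrq then had 26.7, 29.8, 36.7 and 43.8 in T60, 35.2, 38.1 and 32.96 in T90 and 38.8, 37.5, 45.7 and 43.8 in T120. Its T90 and T120 libraries lay above all T0 libraries. The rise at T120 was 0.55 ± 0.20 (adjusted p = 0.0157), and it was not called with upper-quartile factors (0.18; adjusted p = 0.391) or after background subtraction (0.40; adjusted p = 0.198). It was not called without the T120 libraries A and C either.

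Cyc1 (chr15:76343523-76346260, plus strand), cytochrome c1, had 19.6, 28.2, 24.02 and 27.1 CPM in T0, 18.1, 30.8, 26.03 and 17.4 in T15 and 15.5, 21.01 and 20.9 in T30. Cyc1 then had 20.2, 30.4, 25.4 and 25.8 in T60, 30.8, 29.6 and 37.3 in T90 and 28.5, 31.7, 37.3 and 39.8 in T120. Its T90 and T120 libraries lay above all T0 libraries. It rose at T120 by 0.47 ± 0.19 on the log2 scale (adjusted p = 0.0252) and at T120 against T60 by 0.44 ± 0.18 (adjusted p = 0.0435); the call against T0 was lost with upper-quartile factors (0.12; adjusted p = 0.547), after background subtraction (0.47; adjusted p = 0.474) and without library 0A, 120C or 120D (0.37, 0.43 and 0.42).

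Uqcr11 (chr10:80402997-80406830, minus strand), a small peripheral subunit, had 35.9, 32.3, 27.9 and 24.4 CPM in T0, 21.02, 32.3, 29.7 and 26.8 in T15 and 18.2, 18.6 and 24.4 in T30. Uqcr11 then had 16.98, 20.3, 28.98 and 34.3 in T60, 17.4, 25.4 and 11.99 in T90 and 12.2, 13.2, 24.5 and 21.6 in T120. The lowest T0 library lay just under the highest T120 library, so the groups overlapped. Uqcr11 fell at T120 (-0.74 ± 0.26; adjusted p = 0.0148), a call lost without library 120A (-0.55; adjusted p = 0.0722) and with limma-voom. Uqcr10 (-0.67 ± 0.28), another small subunit, and the core protein Uqcrc2 (-0.37 ± 0.13) fell too. The other core protein, Uqcrc1, had -0.05 ± 0.14, the Rieske iron-sulphur protein Uqcrfs1 0.22 ± 0.17, and Uqcrb and Uqcrh 0.39 ± 0.21 and -0.08 ± 0.22.

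Complex IV, cytochrome c oxidase, had 11 measured members. Of these 0 were called at T60 and T90 (56.2% and 68.8% of all genes) and 1 was up at T120 (37.3%). That was Cox5a (chr9:57521274-57532426, plus strand), a subunit on the matrix side, which had 11.7, 10.1, 12.9 and 17.4 CPM in T0, 10.8, 16.8, 15.6 and 10.5 in T15 and 7.09, 10.4 and 12.5 in T30. Cox5a then had 13.1, 16.99, 17.1 and 17.4 in T60, 14.5, 15.7 and 17.5 in T90 and 17.1, 23.5, 21.2 and 27.9 in T120. The lowest T120 library lay just under the highest T0 library, so the groups overlapped, and the other T120 libraries lay above all of T0. Cox5a rose by 0.77 ± 0.21 at T120 (adjusted p = 0.00226) and by 0.48 ± 0.20 at T120 against T60 (adjusted p = 0.0467). It was not called with upper-quartile factors (0.42; adjusted p = 0.0723) or after background subtraction (1.181; adjusted p = 0.201), and 12.8% of its exon bases are shared with an antisense gene, whose reads the deposited counts may hold.

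Cox4i1 (chr8:120668222-120674207, plus strand), the isoform of subunit IV found in most tissues, had 128, 131, 126 and 129.7 CPM in T0, 93.6, 145, 127 and 99.2 in T15 and 86.8, 93.3 and 103 in T30. Cox4i1 then had 127, 134, 112 and 142 in T60, 139.8, 162 and 119.6 in T90 and 118, 118, 132 and 141 in T120. The 3 T30 libraries lay below the T0 libraries and the T60 and T120 libraries spread around them. Cox4i1 had -0.02 ± 0.12 at T120 (adjusted p = 0.905), and -0.45 ± 0.14 at T30 (adjusted p = 0.061). With upper-quartile factors, where the median gene is itself at -0.43, it is called down at T120 (-0.38; adjusted p = 0.00595).

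Cox6a1 (chr5:115345642-115348981, minus strand), again the isoform of most tissues, was the other member called at T30. It had 38.95, 32.9, 29.1 and 36.1 CPM in T0, 31.9, 39.5, 34.7 and 31.4 in T15 and 21.9, 22.01 and 26.8 in T30. Cox6a1 then had 28.5, 37.4, 29.2 and 32.4 in T60, 43.8, 43.4 and 34.7 in T90 and 33.9, 31, 40.7 and 32.3 in T120. All T30 libraries lay below all T0 libraries, and those of T60, T90 and T120 overlapped with T0. It fell by 0.53 on the log2 scale at T30 (SE 0.15; adjusted p = 0.0359) and had 0.01 ± 0.13 at T120 (adjusted p = 0.959), which turned to a called fall with upper-quartile factors (-0.35; adjusted p = 0.0174). At T30, where background was highest, neither this call nor that of Ndufv1 was kept after background subtraction or without the 5 libraries of highest background.

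Cox6b1 (chr7:30616861-30626151, minus strand), on the outer face of the complex, had 42.3, 41.7, 34.1 and 41.5 CPM in T0, 19.1, 41.4, 42.4 and 34.6 in T15 and 19.7, 28.4 and 31.2 in T30. Cox6b1 then had 28.3, 28.9, 30.4 and 35.3 in T60, 31.3, 28.6 and 29.95 in T90 and 20.3, 31.5, 36.8 and 40.9 in T120. Its T30 and T90 libraries lay below its T0 libraries, and the other groups overlapped with T0. Cox8a (chr19:7215153-7217616, minus strand), a small subunit, had 55.9, 55.5, 44.97 and 56.9 CPM in T0, 47.6, 64.01, 54.7 and 43.7 in T15 and 33.2, 47.02 and 55.3 in T30. Cox8a then had 53.1, 64.4, 56.6 and 55.9 in T60, 55.8, 72.4 and 48.9 in T90 and 58.7, 53.9, 58.4 and 50.7 in T120. Each later group overlapped with T0. Ndufa4 (chr6:11900292-11907497, minus strand), named as a complex I gene and since assigned to complex IV, had 21.5, 20.3, 9.22 and 16 CPM in T0, 14.8, 19.7, 18.7 and 20.4 in T15 and 10.9, 13.01 and 19.3 in T30. Ndufa4 then had 10.8, 16.8, 16.7 and 18.9 in T60, 11.6, 14.5 and 14.8 in T90 and 12.8, 12.7, 19.5 and 17.2 in T120. Here too every later group overlapped with T0. None of these 3 was called at any time against T0, with -0.30 ± 0.21, 0.05 ± 0.15 and -0.11 ± 0.24 at T120. Cox6b1 was called down at T120 both with upper-quartile factors (-0.66; adjusted p = 0.00896) and after background subtraction (-0.62; adjusted p = 0.0387). The remaining members, Cox5b (-0.09 ± 0.30), Cox6c (0.31 ± 0.21) and Cox7b (0.12 ± 0.19), were not called either.

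Cox7a2 and Cox7a2l are related genes whose products occupy the same kind of site: Cox7a2 in free complex IV and Cox7a2l where complex IV joins complex III in supercomplexes. Cox7a2 (chr9:79755361-79759878, minus strand) had 29.4, 29.7, 26.5 and 34.5 CPM in T0, 27.6, 35.7, 34.2 and 34.3 in T15 and 21.03, 25.8 and 24.1 in T30. Cox7a2 then had 27.9, 23.9, 32.9 and 33.3 in T60, 27.4, 23.7 and 22.8 in T90 and 22.5, 25.1, 29.4 and 34.7 in T120. Its T120 values spread from below to above its T0 range. Cox7a2l (chr17:83501918-83517330, minus strand) had 25.03, 26.8, 22.1 and 23.5 CPM in T0, 11.6, 23.6, 34.4 and 22.7 in T15 and 24.6, 19.2 and 16.7 in T30. Cox7a2l then had 27.3, 22.1, 22.5 and 26.8 in T60, 27.6, 20.6 and 8.13 in T90 and 22, 11.03, 14.7 and 20.5 in T120. The T120 values of Cox7a2l lay below its T0 values, but neither gene was called (-0.11 ± 0.15 and -0.51 ± 0.31; adjusted p = 0.514 and 0.138). Their ratio within a library does not depend on scaling. Its mean log2 was 0.74 ± 0.50 at T120 and 0.30 ± 0.18 at T0 (SD, n = 4 each), a difference of 0.44 (two-sided exact permutation test, p = 0.171, adjusted over 2 tests 0.343); at T60 it was 0.25 ± 0.23, a difference of -0.05 from T0 (exact p = 0.743). Without library 120A the difference at T120 was 0.68 (exact p = 0.0571, the smallest that 3 libraries against 4 can give). Of 11 paralog pairs sought this was the 1 with both genes in the table, and 4 libraries against 4 can give no exact p below 0.0286.

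Complex V had 5 of 13 subunits up and 3 down at T120 (37.3% and 39.5% of all genes), 4 up and 2 down at T90 (33.8% and 35%) and 2 up and 2 down at T60 (27.9% and 28.3%). The rises at T90 and T120 were thus near the shares of all genes. Within the catalytic head and its central stalk, 5 subunits that sit in 1 structure, 2 were up and 2 down. The catalytic beta subunit Atp5b (chr10:128083273-128090391, plus strand) had 393, 419, 401 and 566 CPM in T0, 389, 599.5, 490.1 and 356 in T15 and 267, 399 and 532 in T30. Atp5b then had 593, 681, 629 and 706 in T60, 680.2, 805 and 729 in T90 and 855, 792, 853 and 776 in T120. All libraries of T60, T90 and T120 lay above all T0 libraries, of which 0D was the highest. Atp5b averaged 819 ± 41.2 CPM at T120 and 445 ± 81.5 CPM at T0 (SD, n = 4 each), with log2 fold changes of 0.55 ± 0.18 at T60, 0.73 ± 0.19 at T90 and 0.88 ± 0.18 at T120 (adjusted p = 0.000141). The rise at T120 was kept with upper-quartile factors (0.52; adjusted p = 0.00686) and after background subtraction (0.54; adjusted p = 0.00143), and the one at T60 with neither (0.29 and 0.12).

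Atp5c1 (chr2:10056016-10080510, minus strand), the gamma subunit that turns inside the head, had 94.5, 115, 96.7 and 113 CPM in T0, 77.6, 119, 96.6 and 90.5 in T15 and 63.3, 80.04 and 87.95 in T30. Atp5c1 then had 71.4, 75.4, 82.8 and 79.3 in T60, 56.2, 73.1 and 64.3 in T90 and 50.7, 62.1, 65.1 and 66.1 in T120. The T30, T60, T90 and T120 libraries all lay below the T0 libraries. Atp5c1 fell at T60 (-0.44 ± 0.13), T90 (-0.70 ± 0.14) and T120 (-0.78 ± 0.13; adjusted p = 1.5e-05), and the T120 fall was -1.10 after background subtraction (adjusted p = 3.90e-06). Of the other subunits of the head and stalk, Atp5e (epsilon) fell at T120 (-0.65 ± 0.20), Atp5d (delta) rose (0.37 ± 0.13; 0.09 after background subtraction, adjusted p = 0.687), and Atp5a1 (alpha) had 0.22 ± 0.15 and was not called.

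In the membrane part, Atp5g3 (chr2:73908447-73911326, minus strand), 1 of the genes for the proton-carrying ring, had 46.5, 45.4, 39.95 and 45.5 CPM in T0, 31.5, 51.3, 44.8 and 42.2 in T15 and 37.4, 40.8 and 41.01 in T30. Atp5g3 then had 44.8, 53.95, 58.9 and 67.8 in T60, 69.8, 54.5 and 46.01 in T90 and 43.9, 56.4, 69.6 and 82.2 in T120. Library 120A lay within the T0 range and the other T120 libraries above it. Atp5g3 rose at T120 (0.51 ± 0.18; adjusted p = 0.0137), a call lost with upper-quartile factors (0.15; adjusted p = 0.443), after background subtraction (0.31; adjusted p = 0.216) and without library 120D (0.38; adjusted p = 0.0599). Atp5l, subunit g, rose (0.70 ± 0.30; adjusted p = 0.0371), at a level where background takes up most of the early count, while Atp5k, subunit e, fell (-0.72 ± 0.28; adjusted p = 0.0228). Atp5j2, subunit f, fell at T60 (-0.60 ± 0.18; adjusted p = 0.00657) and had -0.22 ± 0.17 at T120. In the peripheral stalk, which holds the head still, Atp5f1 rose at T120 (0.46 ± 0.13; adjusted p = 0.00253) and Atp5h, Atp5o and Atp5j had 0.36 ± 0.18, 0.04 ± 0.16 and -0.16 ± 0.16 and were not called. Of complex V's 5 rises at T120, 1 was left with upper-quartile factors and 1 after background subtraction, and that 1 was Atp5b in both; without the T120 libraries A and C 3 were up.

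**Figure D3:**
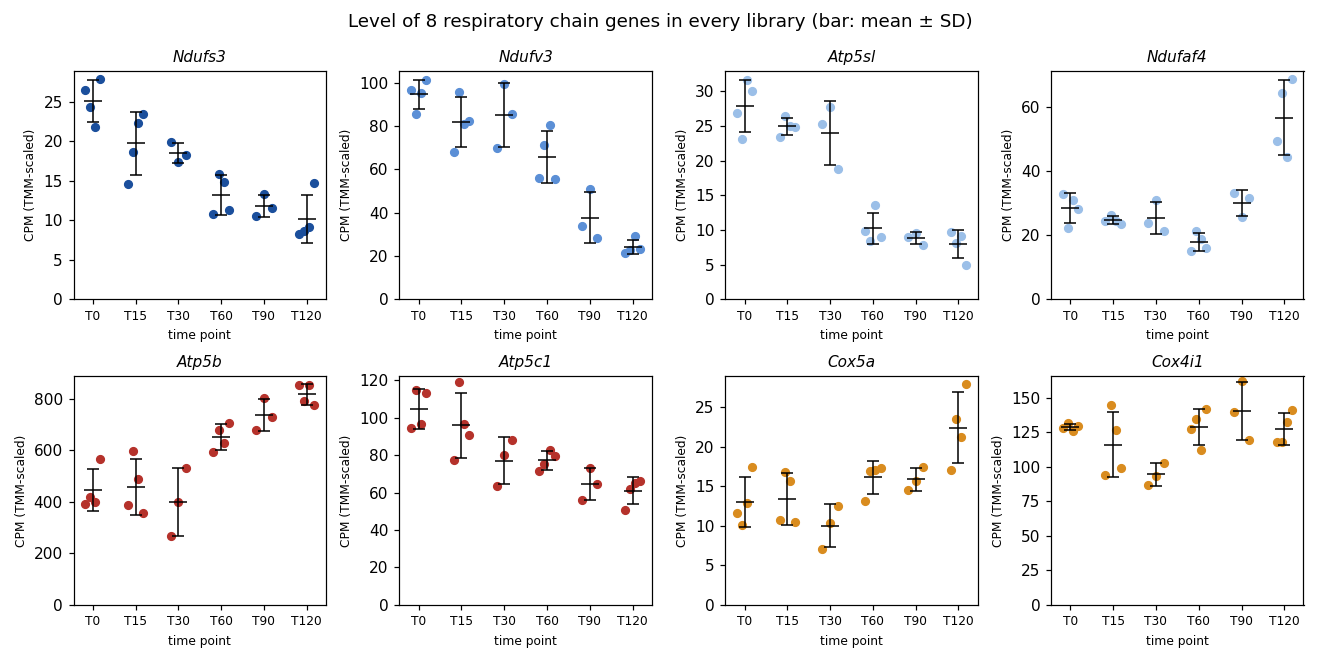
CPM (TMM-scaled, linear axis from 0) of 8 members in every library by time point (points), with mean ± SD (bars; n = 4, or 3 at T30 and T90). Ndufs3, Ndufv3, Atp5sl and Atp5c1 are lower at T120 than at T0, Ndufaf4, Atp5b and Cox5a are higher (Cox5a not called with upper-quartile factors), and Cox4i1 averages 127 ± 11.5 CPM at T120 and 129 ± 2.33 CPM at T0.

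Sums within a library show the same shift without any scaling between libraries. These ratios were chosen after the values had been seen, so they are given as a description without a test. The summed counts of complex I over those of complex V were 0.940 ± 0.0731 in T0, 0.896 ± 0.0729 in T15, 0.939 ± 0.131 in T30, 0.638 ± 0.0327 in T60, 0.492 ± 0.0256 in T90 and 0.426 ± 0.0253 in T120 (mean ± SD of 4 libraries, or 3 at T30 and T90). Single libraries lay between 0.390 and 0.450 at T120 and between 0.839 and 1.00 at T0, with no overlap. After background subtraction the ratio was 0.412 ± 0.0300 at T120 and 0.858 ± 0.0768 at T0. Leaving out Atp5a1 and Atp5b, which supply most of complex V's counts, it was 1.30 ± 0.0581 at T120 and 2.21 ± 0.0535 at T0. Complex I over complex IV gave 1.62 ± 0.0687 at T120 and 2.80 ± 0.112 at T0.

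As a share of the members' counts, complex I held 20.9% ± 0.588 at T120 and 33.6% ± 0.975 at T0 (SD, n = 4 each). Complex II held 4.78% ± 0.222 at T120 and 6.82% ± 0.374 at T0. Complex V held 49.1% ± 1.73 at T120 and 35.8% ± 1.85 at T0. The shares of complexes III and IV overlapped between T120 and T0: single libraries lay between 9.53% and 11.7% at T120 and between 9.86% and 11.4% at T0 for complex III, and between 12.4% and 13.2% at T120 and between 11.6% and 12.5% at T0 for complex IV. Within complex V the counts of Atp5b over those of Atp5c1, subunits of the same rotary head, were 4.24 ± 0.557 in T0, 4.76 ± 0.556 in T15, 5.08 ± 0.924 in T30, 8.46 ± 0.657 in T60, 11.5 ± 0.565 in T90 and 13.6 ± 2.24 in T120. Every library from T60 on had a higher ratio than every earlier library.

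**Figure D4:**
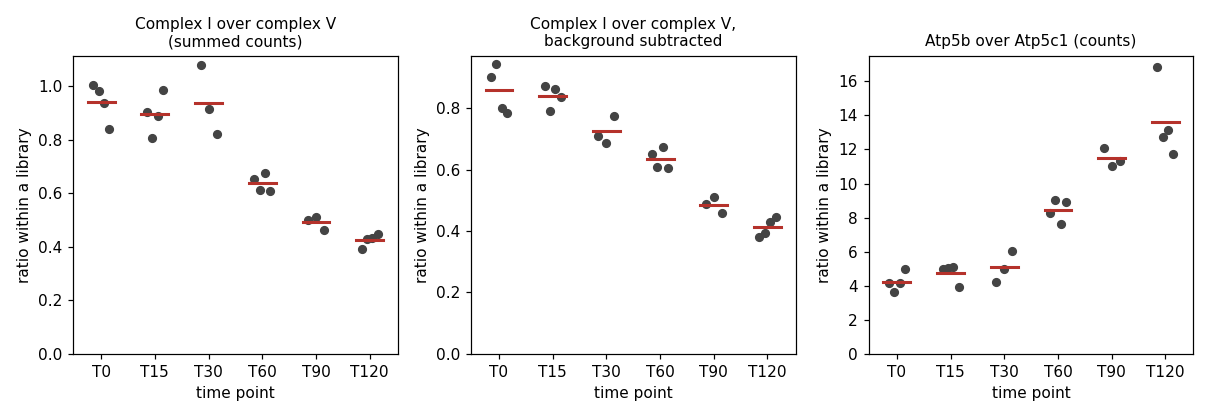
Ratios of counts within each library by time point (points; red lines are group means; linear axes from 0): complex I over complex V, the same after background subtraction, and Atp5b over Atp5c1. Complex I over complex V averages 0.426 at T120 and 0.940 at T0, and Atp5b over Atp5c1 averages 13.6 at T120 and 4.24 at T0.

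Comparisons between later time points use no T0 library. At T60 against T30 8 members were up and 5 down, beside 51% of all genes called (26.5% up and 24.5% down). The rises were those of Atp5b, Cox5a, Atp5d, Atp5g3, Atp5a1, Cox4i1, Cox6a1 and Atp5f1, between 0.35 and 0.71, and the falls those of Atp5sl, Ndufab1, Ndufb5, Ndufb2 and Ndufaf4. Background was 5.58 CPM per kb at T30 and 0.123 at T60. After its subtraction 0 members were up and 11 down, beside 1200 and 933 of all genes. The 1 member called in both, Atp5a1, turned round to -0.38 (adjusted p = 0.0455). With the 5 libraries of highest background left out, 0 were called; T30 then has a lone library, whose spread is taken from the other groups. At T90 against T60 1 member was up, Ndufaf4, and 2 down, Ndufa3 and Ndufv3, beside 30.3% of all genes (16.7% up and 13.6% down). At T120 against T90 Ndufaf4 was up and Ndufs7 and Ndufv3 were down, beside 23% of all genes (9.11% up and 13.9% down).

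The second hour, T120 against T60, had low background on both sides (means of 0.409 and 0.123 CPM per kb). It called 4 members up and 15 down, beside 60.4% of all genes (28.4% up and 32% down). Of the 15 falls 12 were of complex I subunits, led by Ndufv3 (-1.44 ± 0.17; adjusted p = 6.67e-07), Ndufa6 (-0.79 ± 0.20), Ndufs8 (-0.79 ± 0.17) and Ndufs7 (-0.71 ± 0.18), and the others were Sdha, Sdhb and Atp5c1. The rises were Ndufaf4, Cox5a, Cyc1 and Ndufb5. After background subtraction 2 members were up and 7 down, beside 1301 and 1304 of all genes, 6 of the members' falls being of complex I. The summed endothelial markers were 156 to 418 CPM at T120 and 23.0 to 85.1 CPM at T60. Without T120 libraries A and C 9 members were down, 7 of them of complex I, beside 2327 of all genes. Without library 120A alone 9 members were down.

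The other genes that build, feed and regulate the chain did not share 1 direction. Of these lists the citrate cycle (median 0.03, against -0.33) and the carriers (0.09, against -0.27) changed the sign of their median with upper-quartile factors. Of 9 listed assembly factors of complexes II to V 1 was up and 7 down at T120, beside 37.3% and 39.5% of all genes. Their median log2 fold change was -0.96, beside -0.08 for all genes. The falls were led by Coa5 (-2.14 ± 0.20; 6.94 CPM at T120 and 30.6 CPM at T0) and Cox15 (-1.96 ± 0.18), a factor for the haem of complex IV, and the rise was that of Ttc19 (0.91 ± 0.12), which acts on complex III. Both listed complex I assembly factors outside the Ndufaf names were down, Acad9 (-1.57 ± 0.21) and Foxred1 (-0.55 ± 0.20). Neither call was kept after background subtraction, where Acad9 was at -1.11 (adjusted p = 0.379) and Foxred1 at 0.00 (adjusted p = 0.998). Of 40 mitochondrial ribosomal protein genes, which serve the chain's mitochondrially made subunits, 7 were up and 23 down (median -0.55). Mrpl33 (-2.30 ± 0.22) had the largest fall and Mrps6 (2.00 ± 0.28) the largest rise of these. After background subtraction 3 were up and 10 down with a median of -0.44, Mrpl33 was at -2.41 (adjusted p = 0.0151), and the biological coefficient of variation was 0.384 in place of 0.192.

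Coenzyme Q synthesis had 3 of 8 genes up and 4 down at T120, counts near the shares of all genes (37.3% up and 39.5% down). Coq8a, a kinase-like protein of the pathway, fell by 2.80 on the log2 scale (14.2 CPM at T120 and 98.1 CPM at T0), and Coq9 (-2.31 ± 0.24) fell too, while the coenzyme Q binding protein gene Coq10b rose (2.80 ± 0.18; 84.2 CPM at T120 and 12.1 CPM at T0). The citrate cycle had 3 of 13 up and 5 down, or 2 up and 8 down with upper-quartile factors: Idh3a (1.03 ± 0.16) and Idh3g (-0.77 ± 0.15), catalytic and regulatory subunits of the same dehydrogenase, moved in opposite directions. Mitochondrial import genes had 5 of 9 up and 1 down (median 0.44; 3 up and 1 down with upper-quartile factors), with the outer membrane pore Tomm40 at 1.36 ± 0.16 and the receptor Tomm70a at 1.27 ± 0.12; the fall was that of Timm44 (-0.97 ± 0.13), which tethers the import motor.

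Of 13 listed regulators of mitochondrial biogenesis 8 were up and 2 down, beside 37.3% and 39.5% of all genes. Their median was 0.48, and with upper-quartile factors 6 were up and 5 down. Pprc1, a coactivator related to PGC-1alpha and known to respond early to growth signals, rose by 2.70 ± 0.14 (466 CPM at T120 and 71.97 CPM at T0) and Yy1, the factor of the YY1 motif, by 1.99 ± 0.13. The coactivator Ppargc1b fell (-2.17 ± 0.28, 7.66 CPM at T120 and 34.02 CPM at T0), as did Gabpb2 (-1.08 ± 0.10), a subunit of GABP. Of the other GABP genes Gabpb1 rose (0.90 ± 0.19) and Gabpa was not called (0.03 ± 0.12). Nrf1, the factor of the NRF1 motif, rose by 0.48 ± 0.08. Among 7 carriers and channels, the ATP-ADP exchanger gene Slc25a5 (2.15 ± 0.17) and the phosphate carrier gene Slc25a3 (0.91 ± 0.12) rose and the exchanger isoform of heart and muscle, Slc25a4, fell (-0.35 ± 0.14). Cytosolic ribosomal protein genes had 34 of 71 up and 0 down (median 0.39; 18 up and 1 down after background subtraction, 18 up and 8 down with upper-quartile factors).

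**Figure D5:**
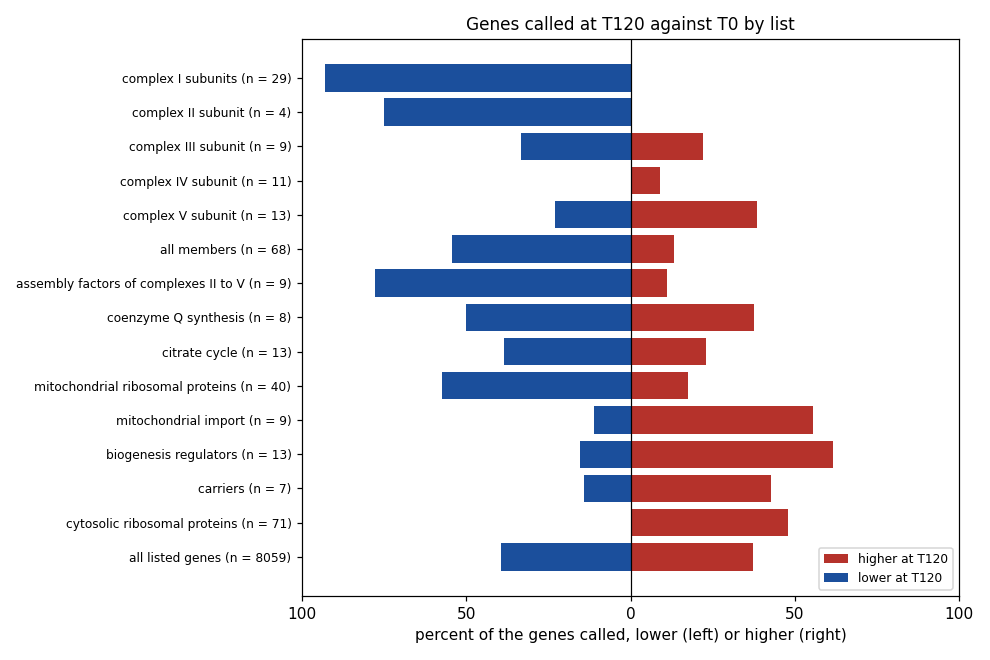
Percent of the genes in each list called lower (left, blue) or higher (right, red) at T120 against T0, with the number of listed genes in brackets and all 8059 listed genes at the bottom (39.5% lower, 37.3% higher). Complex I subunits have 27 of 29 lower and import genes 5 of 9 higher; with upper-quartile factors the rises fall to 3 of 9 import genes and to 1 of 13 complex V subunits.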

How the data were processed

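RNA of fixed mouse muscle stem cells was sequenced as 22 bulk libraries with the SMARTer stranded total RNA pico kit and single reads, per the labels' protocols. The deposited table holds raw counts per Ensembl gene and library made by the authors, for 8059 genes, and the lowest mean level the authors give for a gene (baseMean, a score) is 98.36. Its authors' own log2 fold changes and adjusted p-values per comparison were used only for a count: the authors' deposited table calls 12 members up and 36 down at T120, of which 9 and 36 are also called here. The submitters' processing notes name cutadapt 1.11, featureCounts 1.4.5-p3, DESeq2 1.18.1 and build mm10; the aligner, annotation release and strand setting are not given in these sources. Because 25 members share exon bases with another gene, reads of such partners may be counted with them.

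Counts were fitted with edgeR 4.0.16 (quasi-likelihood F test, TMM factors, all 22 libraries in 1 fit with time as a factor, biological coefficient of variation 0.192) under R 4.3.3, with Benjamini-Hochberg adjustment over 8059 genes and a call at an adjusted p under 0.05. CPM were computed over the listed genes with TMM factors. Alternatives were DESeq2 1.42.0 (its size factors, and its test), upper-quartile factors, limma-voom (limma 3.58.1), no filter on low counts, the library letter as a block, each library left out, only the 2 time points compared, omission of the 5 libraries of highest background, and subtraction of all or 0.5 of the background. Background was the mean count per kb of exon over 7 long genes of other tissues, times each gene's exon length; these genes, and the omission of 2 T120 libraries with the highest endothelial markers, were chosen after the data had been seen. The fitting was tested on simulated data. Gene positions are GENCODE vM21 (GRCm38). The members and lists were chosen with earlier results of these data known. Values in every library are given, in each role, for the called member with the largest rise and that with the largest fall at T120, for paralog pairs and for members called at T15 or T30. Other members are given by log2 fold change. At most 2 rises and 2 falls are named per other list, with Gabpa, Gabpb1 and Nrf1 added for the factors of the motifs. Single-cell samples were not used here. The values of 1 member are not reported here; it is included in the counts, medians and sums.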

Additional observations from a re-analysis of the deposited data

Results flagged for a closer look

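In 7 of 92 groups of 4 libraries, 1 library lay far from the other three by Dixon's criterion, which chance alone meets in about 1 in 20 groups. At T120 Ndufs3 had 14.7 CPM in library 120D, against 8.33, 8.70 and 9.11 CPM in the others, so the fall at T120 was smallest there. Atp5b had 566 CPM in T0 library 0D, against 393, 401 and 419 CPM in the others. Library 0C met the criterion as the lowest T0 library for 3 members. Atp5g3 had 39.95 CPM there, against 45.4, 45.5 and 46.5 CPM, Cox6b1 had 34.1 CPM, against 41.5, 41.7 and 42.3 CPM, and Cox8a had 45.0 CPM (44.97), against 55.5, 55.9 and 56.9 CPM. It was also the lowest T0 library for further members, among them Cox4i1 (126 CPM), Ndufv1 (57.8 CPM), Sdha (163 CPM) and Uqcrh (111.5 CPM), and in the members' summed level (3708 CPM). Ndufab1 (53.6 CPM) was highest there. Library 0C had the lowest total count and the highest background of the T0 libraries, 2974294 counts and 4.80 CPM per kb; the part of either in these values was not tested. Cox5a had 13.1 CPM in library 60A, against 17.0, 17.1 and 17.4 CPM in the other T60 libraries. The ratio of Atp5b to Atp5c1 was 3.93 in library 15D, against 5.01, 5.04 and 5.07 in the other T15 libraries.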

How the results depend on the processing

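The fall of complex I subunits at T120 was called for 21 to 29 of 29 subunits under every alternative run, and the count of all members down at T120 lay between 27 and 48. Rises, and comparisons with T30, depended most on the processing; the causes were not tested. Upper-quartile factors gave 0 members up and 35 down at T60 (2 and 17 in the report), 0 up at T90 (4), 2 up at T120 (9), 2 up and 13 down at T60 against T30 (8 and 5), 8 down at T90 against T60 (2), and 1 up and 23 down at T120 against T60 (4 and 15); complex I had 22 down at T60 (12), complex V 0 up at T90 (4) and 1 up at T120 (5). The estimate for Cox6a1 at T120 reversed with them, to -0.35 (adjusted p = 0.0174, against 0.01 in the report). Of all genes, these factors called 1484 up and 3727 down at T60 (2252 and 2281 in the report). They called 1873 of all genes up at T90 and 2140 up at T120. All genes had 1267 up and 3236 down at T60 against T30, and 1921 up and 2953 down at T120 against T60. Background subtraction gave 1 down at T30, 0 up at T60, 0 up at T90 and 1 up at T120, 0 up and 11 down at T60 against T30, 0 up and 1 down at T90 against T60, 0 up and 0 down at T120 against T90, and 2 up and 7 down at T120 against T60, 6 of them of complex I; complex V had 0 up at T90 and 1 at T120. Of all genes, background subtraction called 131 down at T30, 1485 up at T60, 2008 up at T90 and 2438 up at T120. All genes had 1200 up and 933 down at T60 against T30, and 1301 up and 1304 down at T120 against T60. Subtracting 0.5 of the background gave 1 member down at T30, 1 up and 26 down at T60, and 4 up at T120 (2 of complex V). It gave 0 up and 8 down at T60 against T30. Of all genes it called 2039 up and 2125 down at T60. For the settings that follow, counts of all genes are not given in this section. Without the 5 libraries of highest background 0 were down at T30, 11 down at T60, 5 up at T120 (2 of complex V), and 0 up and 0 down at T60 against T30, where T30 is left with 1 library, assumed to vary like the other groups. Using only the 2 time points compared gave 1 down at T30, 4 up at T60, 0 down at T120 against T90 and 9 up at T120 against T60. limma-voom gave 0 down at T30, 5 up at T60 against T30, 2 up and 8 down at T90 against T60 and 2 up at T120 against T90. For T90 against T60, DESeq2 size factors gave 2 up and the DESeq2 test 2 up and 4 down. Without the 2 T120 libraries of highest endothelial markers 4 were down at T90 against T60, 1 down at T120 against T90, 9 down at T120 against T60 (7 of complex I), and 3 of complex V up at T120. With 1 library left out, members down at T30 numbered 0 to 6; at T60 against T30 2 to 15 were up and 4 to 8 down, at T90 against T60 1 to 2 up and 1 to 9 down, at T120 against T90 1 to 2 up and 0 to 3 down, at T120 against T60 1 to 6 up and 9 to 17 down, and complex V had 3 to 6 up at T120. The library letters were not taken to pair the samples in the main fit, since not every same-letter correlation of deviations was over 0.1. Paired samples can miss that rule through noise, so it cannot decide whether the letters pair the samples. Same-letter correlations ran from -0.575 to 0.467 (median 0.116, 26 of 51 over 0.1), against a median of -0.0209 and 45 of 150 over 0.1 for different letters. Of 22 libraries 10 were closest to one of their own letter. The replicate block moved the falls at T60 against T30 to 8 and those at T120 against T90 to 1. Libraries hold 2974294 to 10482407 counts at T0 to T30 and 8647622 to 27826437 from T60 on, and the part of depth in the results was not tested.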
